A study of Mus musculus with 66 samples.

Results

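p2 progenitors are the cells of the ventral spinal cord that give rise to V2 interneurons, and RNA from them was sequenced on day 5 (D5) and day 7 (D7) of a differentiation of mouse embryonic stem (ES) cells. The 6 libraries, 3 for each day, were taken by their labels (wild type, WT; domain p2; gate NFIAn, which names the transcription factor NFIA) out of 66 in the series. The rest of the series covers p1 and pM progenitors, later days, NFIAp cells and a mutant genotype (MUT) whose gene the labels do not name. All cells were grown in bFGF at 10 ng/ml, then with CHIR99021 (5 µM, an inhibitor of GSK3) from day 2, then with retinoic acid at 100 nM and SAG, an activator of the Hedgehog transducer Smoothened, at 10 nM from day 3. From day 5 the medium held SAG at 10 nM without retinoic acid, so D7 cells had grown without added retinoic acid since then. Cells were fixed in glyoxal, stained inside the cell and sorted, 10000 to 15000 per population. The labels used here name neither the ES cell line nor the markers of the sort, and do not say whether the 3 libraries of a day had different cultures as their source. The tests below therefore rest on a spread among libraries of a group that may be technical. In the main fit that spread is pooled over all 66 libraries and not taken from these 6 alone.

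As background, Sonic hedgehog divides the ventral neural tube into domains, each marked by its own transcription factors. p2 progenitors carry Nkx6-1, Irx3 and Pax6, switch on Foxn4 and Vsx1 as they approach differentiation, and yield V2a neurons (Lhx3) and V2b neurons (Gata2, Gata3, Tal1), a choice in which Notch signalling takes part. Progenitors of the whole spinal cord also move away from a caudal, Cdx-expressing state, and with age they lose the Lin28 RNA-binding proteins and gain NFI transcription factors and glial genes. The comparison of D7 with D5 asks which of these programs had moved in p2 cells over the first of the sampled steps.

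The 6 libraries held 20.3 to 26.3 M recovered reads and 14206 to 14950 detected genes. D7 replicate 3 stood apart: its normalised counts summed to 33.2 M, where the other D7 libraries reached 18.9 to 19.7 M and those of D5 21.4 to 21.7 M. Ribosomal protein genes took 14.9% of its counts, against 5.43 to 5.72% and 8.17 to 11.5%. Set against the mean of D7 replicates 1 and 2, it read short transcripts high and long ones low, with a median log2 difference of 0.87 in the quintile of genes with the shortest summed exons and -0.40 in the quintile with the longest. The step itself leaned the same way, and less so without that library, as the plot by exon length shows. High totals also marked D7 replicate 3 of WT p1 and pM (37.5 and 37.4 M), and 18 of the 66 libraries exceeded 26 M. D5 replicate 2 read the longest quintile high, with a median log2 difference of 0.35 from the mean of D5 replicates 1 and 3. Of 13438 genes tested with limma, 598 (4.45%) were called higher at D7 and 298 (2.22%) lower at an adjusted p of 0.05, 6.67% in all, and the median log2 difference of all genes was -0.03. Each list count below is to be read beside these shares of all genes. Without D7 replicate 3 the calls were 327 higher (2.43%) and 106 lower (0.789%), 3.22% in all. All 598 and all 298 kept their sign there, and 310 and 93 of them were called again. Other libraries weighed on the total of 896 calls too: it was 445 without D5 replicate 2 and 586 without D5 replicate 3. A call is said below to hold where it also passed in each of the 6 refits that left out 1 of these libraries. By that rule 233 of the rises and 49 of the falls held. These refits kept the spread pooled over the series. Fitted on the compared groups alone, limma called 402 genes (308 higher, 94 lower). Some genes named below share over 10% of their exonic length with another annotated gene, so their reads may be counted for either: Rarb (34.1%), Nefl (32.8%), Hes5 (31.8%), Nova2 (31.7%), Cdkn1c (30.7%), Bnip3 (22.3%), Dll1 (20.5%), Gas1 (19.9%), Nkx1-2 (16.6%), Neurog3 (16.3%), Hoxa2 (15.0%), Lef1 (13.7%) and Tm7sf2 (12.1%). Values below are normalised counts, a difference is the fitted log2 difference of D7 minus D5 ± its standard error, and every adjusted p is limma's with Benjamini-Hochberg adjustment over all genes tested unless another tool is named. In limma, edgeR and DESeq2 alike, no member of the p2 and V2, neurogenic, postmitotic, motor neuron or temporal factor lists was called lower, nor was any lower in limma at an unadjusted p under 0.05.

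**Figure D1:**
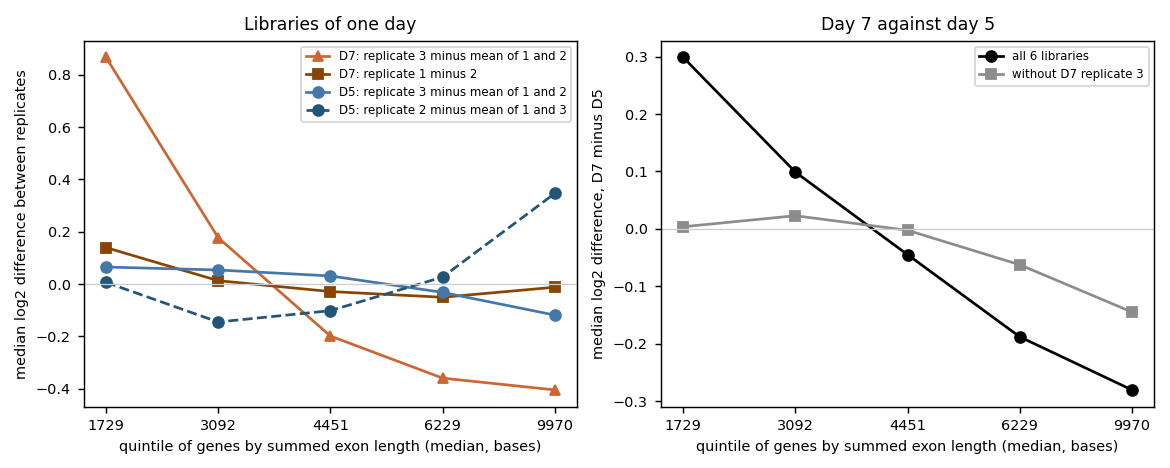
Median log2 differences for quintiles of the tested genes by summed exon length (x axis, median length in bases). Left, differences between replicates of one day: D7 replicate 3 runs from 0.87 to -0.40, and the other lines stay between -0.15 and 0.35. Right, D7 minus D5 with all 6 libraries, from 0.30 to -0.28, and without D7 replicate 3, from 0.00 to -0.14.

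The p2 label was checked against domain factors. At D7 the p2 libraries held 481 to 945 normalised counts of Vsx1, while p1 held 3.08 to 36.9 and pM 1.54 to 34.9. Foxn4 was 152 to 519 in p2 at D7, and at most 53.6 in p1 and 60.5 in pM, while at D5 its p2 range (33.4 to 70.7) lay within that of pM (27.6 to 79.6). Dbx1, a factor of p0 and p1, was lower in p2 at D7 (309 to 526) than in p1 (3032 to 5463), and Olig2, the factor of pM, was lower in p2 (46.4 to 86.8) than in pM (776 to 1124). The pluripotency gene Nanog stayed between 1.52 and 3.98 in the 6 libraries. At D7 the ranges of Vsx1, Foxn4, Dbx1 and Olig2 did not overlap between p2 and the other domain named. Not every marker looked at sided with the label. Foxa2, a floor plate marker, was 22.3 to 70.0 in p2 at D7, 0 to 6.59 in pM and 7.70 to 25.1 in p1. Nkx2-2, a factor of the p3 domain, was 11.6 to 30.1 in p2 at D7, 1.54 to 21.4 in pM and 0 to 1.76 in p1. Irx3 at D7 overlapped between p2 (637 to 1429.9) and p1 (763 to 2441) and was lower in pM (154 to 175).

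The p2 and V2 lineage list rose in part. Of 18 tested members 5 were called higher and none lower (against 4.45% and 2.22% of all genes), with a median log2 difference of 1.71. The 5 were Lhx3, Lhx4, Gata2, Tal1 and Bhlhe22. Lhx3, a LIM homeodomain factor of V2a neurons and motor neurons, stood at 46.8, 34.3 and 50.4 normalised counts at D5 and 578, 408 and 335 at D7. All 3 D7 libraries lay far above D5, a difference of 3.28 ± 0.51 (adjusted p = 9.8e-06). Lhx3 was higher at D7 in both other domains too. In pM it stood at 576 to 600 at D5 and 3970 to 7086 at D7, above p2 on both days. In p1 it stood at 9.28 to 11.7 at D5 and 18.5 to 269 at D7. Lhx4, its close relative, stood at 0.88 to 2.48 at D5 and 82.4 to 145 at D7 (5.62 ± 1.00, adjusted p = 0.00011). Both calls held.

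On the V2b side Gata2, a zinc finger factor of V2b neurons, stood at 5.97, 2.64 and 2.48 normalised counts at D5 and 113, 73.1 and 72.2 at D7. The groups did not overlap, and the difference was 4.26 ± 1.09 (adjusted p = 0.01); without D5 replicate 2 the call ended (adjusted p = 0.051). Tal1, its partner in V2b cells, rose by 3.53 ± 1.07 (adjusted p = 0.036), with 0 to 11.9 at D5 and 22.1 to 122 at D7, and Bhlhe22, a bHLH factor of young neurons, by 2.17 ± 0.70 (adjusted p = 0.0495). Neither held, with adjusted p of up to 0.35 and 0.16 when 1 library was left out (the former without D5 replicate 2), and 0.19 and 0.12 without D7 replicate 3. Gata3, the third V2b factor, overlapped between the days (79.7 to 122 at D5 and 47.7 to 103 at D7).

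Vsx1 and Foxn4, the factors of late p2 progenitors, were higher in every D7 library, and whether they passed depended on the fit. They did not pass in limma over all groups. Vsx1 stood at 202, 135 and 110.0 normalised counts at D5 and 945, 619 and 481 at D7 (2.17 ± 0.90, adjusted p = 0.15). Foxn4 stood at 70.7, 33.4 and 55.4 normalised counts at D5 and 519, 395 and 152 at D7 (2.61 ± 1.13, adjusted p = 0.17), with D7 replicate 3 the lowest of its day. With the compared groups alone both passed (limma adjusted p = 0.0081 for Vsx1 and 0.02 for Foxn4), as they did with a pseudocount of 8 (0.012 and 0.023). DESeq2 called Vsx1 and not Foxn4 (adjusted p = 0.036 and 0.055), and edgeR called neither (adjusted p = 0.06 and 0.1). Across the list 11 of the 18 members had D7 libraries all above D5, where 13.8% of all genes did. Of the progenitor factors that p2 shares with its neighbours, Nkx6-1 and Irx3 overlapped between the days. Nkx6-1 stood at 132 to 272 at D5 and 103 to 359 at D7, and Irx3 at 857 to 1352 at D5 and 637 to 1429.9 at D7. The sign of both differences turned without D7 replicate 3. Pax6 was lower in each D7 library (2627 to 3878 at D5 and 1928 to 2618 at D7) and was not called (-0.42 ± 0.22, adjusted p = 0.28). Sox2, a Sox factor of neural progenitors, was also lower in each D7 library (1412 to 2666 at D5 and 932 to 1366 at D7) and was not called.

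**Figure D2:**
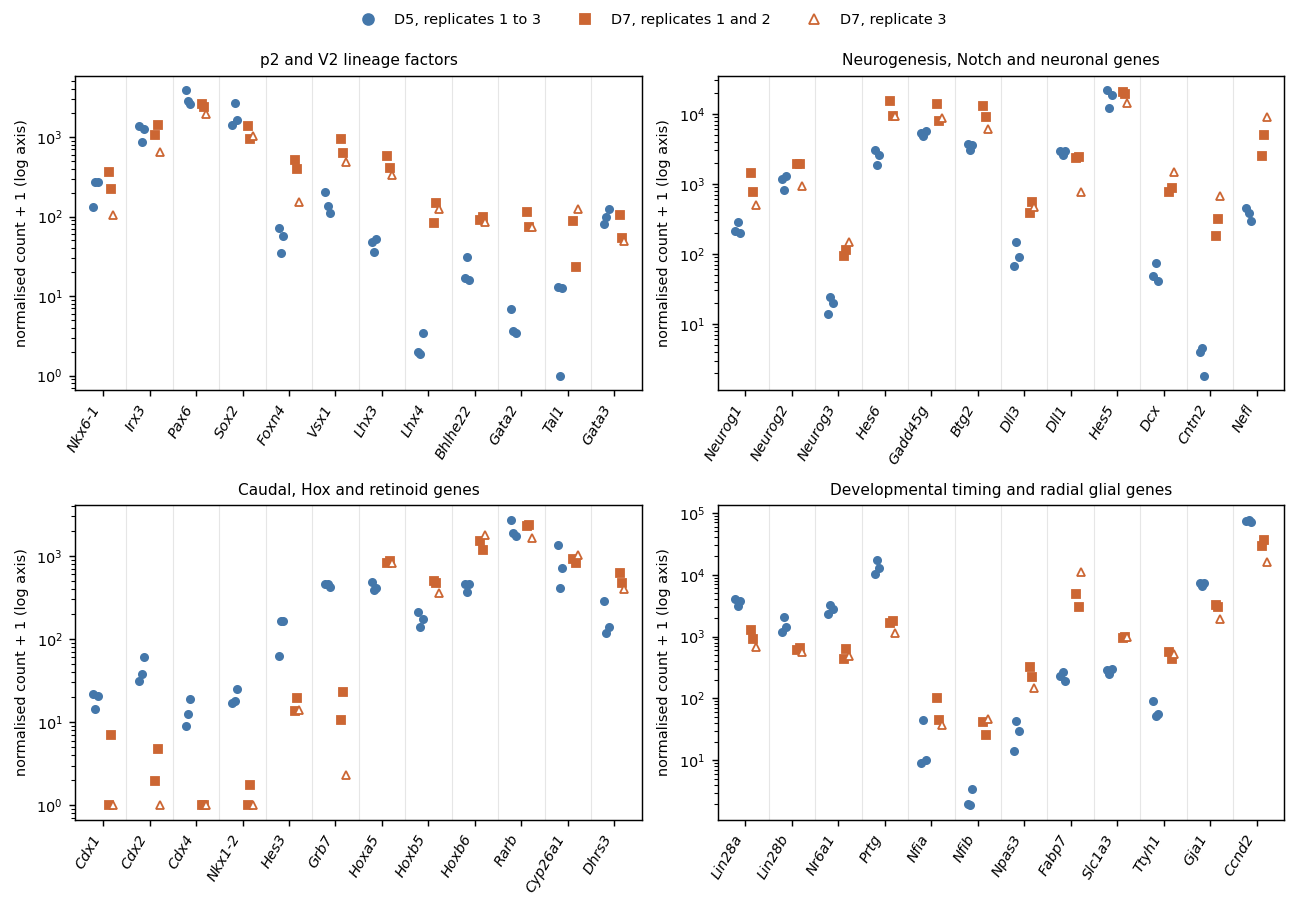
Normalised count + 1 on a log axis for 48 named genes in 4 groups. Blue circles are the 3 D5 libraries, filled orange squares D7 replicates 1 and 2, and open triangles D7 replicate 3. Lhx3, Hes6, Grb7, Prtg and Nfib separate the days in all 6 libraries, while Nkx6-1, Irx3, Hes5, Rarb and Cyp26a1 do not.

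Genes of neurogenic progenitors, the cells about to become neurons, rose: 14 of 22 tested members were called higher and none lower, with a median log2 difference of 1.32. Without D7 replicate 3 the count was 10. Neurog1 and Neurog3, bHLH factors of the neurogenin family, rose by 1.86 ± 0.40 and 2.63 ± 0.60 (adjusted p = 0.0018 and 0.0032). Neurog2, the most abundant neurogenin here, was not called and overlapped, with 823 to 1314 at D5 and 923 to 1946 at D7 (adjusted p = 0.47). Hes6, which promotes differentiation, stood at 3014, 1848 and 2578 normalised counts at D5 and 15298, 9448 and 9258 at D7. The lowest D7 library was well above the highest D5 library (2.18 ± 0.27, adjusted p = 9.4e-08). Btg2, an antiproliferative gene of progenitors committed to neurogenesis, rose by 1.37 ± 0.29 (adjusted p = 0.0012). The calls of Neurog1, Neurog3, Hes6 and Btg2 held. That of Btg2 ended with quantile normalisation (adjusted p = 0.061).

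Calls of the other members depended on single libraries. Gadd45g, a stress sensor that marks cells leaving the cycle, rose by 0.90 ± 0.25 (adjusted p = 0.017; up to 0.16 when 1 library was left out, its call ending without D5 replicate 2 and without D7 replicate 1). Cdkn1c, the inhibitor p57 that takes cells out of cycle, rose by 1.85 ± 0.52 (adjusted p = 0.023; up to 0.11). The zinc finger factors Insm1 (1.55 ± 0.49) and Myt1 (2.22 ± 0.54) and the Ebf factors Ebf2 (1.27 ± 0.37) and Ebf3 (2.19 ± 0.50) also rose, with adjusted p of 0.044, 0.0065, 0.028 and 0.0032. Their highest adjusted p with 1 library left out was 0.21, 0.1, 0.19 and 0.12. The bHLH factors Neurod1 (274 to 402 at D5 and 598 to 723 at D7) and Neurod4 (961 to 1771 at D5 and 1787 to 2507 at D7) were higher in each D7 library and were not called (adjusted p = 0.069 and 0.25).

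In the Notch pathway, which holds progenitors back from differentiating, 3 of 21 members were called higher and none lower (1 was lower at an unadjusted p under 0.05, none was called lower by edgeR and 1 by DESeq2), and the median log2 difference was 0.10. None of the 3 was called without D7 replicate 3. Dll3, a ligand-like protein of differentiating cells that acts within the cell, stood at 66.7, 145 and 89.3 normalised counts at D5 and 377, 547 and 472 at D7. The groups did not overlap (2.26 ± 0.67, adjusted p = 0.029; adjusted p = 0.094 without D7 replicate 3). Mfng, which adds sugars to Notch, and Dlk1, a relative of the Notch ligands, rose by 0.95 ± 0.30 (adjusted p = 0.043) and 2.02 ± 0.48 (adjusted p = 0.0048). Among ligands not called, Dll1 stood at 2976, 2557 and 2946 normalised counts at D5 and 2330.5, 2449.6 and 769.6 at D7. Its D7 replicates 1 and 2 were close to D5 and replicate 3 was far below, and the adjusted p was 0.39. Dll4, a ligand of the p2 domain, stood at 152 to 185 at D5 and 192 to 602 at D7 (adjusted p = 0.48), and Jag1 was lower in each D7 library, 587 to 684 at D5 and 141 to 313 at D7 (-1.44 ± 0.48, adjusted p = 0.058). The main target of the pathway, Hes5, was abundant and overlapped on both days, with 12149 to 21775 at D5 and 14335 to 20558 at D7 (0.05 ± 0.32, adjusted p = 0.94), a difference whose sign turned with quantile normalisation.

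Promoters of 3 of these genes are printed because each holds the E-box CAGCTG, one of the sequences that bHLH factors bind, in the bases around its start, and all 3 were higher in every D7 library than in any at D5. The sequences are from RefSeq (GRCm38.p6), 250 bases before to 50 after the gene's start on the gene's strand, with the E-box in capitals. They are Vsx1 (chr2:150689088-150689387, minus strand, matches starting at -79 and -44 from the start), Hes6 (chr1:91413989-91414288, minus strand, -171) and Dll3 (chr7:28301736-28302035, minus strand, -7). Hes6 has 2 promoters in the RefSeq set, and only the first listed is printed.
Vsx1: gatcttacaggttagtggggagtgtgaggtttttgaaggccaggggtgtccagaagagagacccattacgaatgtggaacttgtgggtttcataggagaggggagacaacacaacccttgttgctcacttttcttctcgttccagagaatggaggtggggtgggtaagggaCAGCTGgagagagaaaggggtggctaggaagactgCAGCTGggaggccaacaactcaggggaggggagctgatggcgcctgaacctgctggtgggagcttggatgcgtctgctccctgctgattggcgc
Hes6: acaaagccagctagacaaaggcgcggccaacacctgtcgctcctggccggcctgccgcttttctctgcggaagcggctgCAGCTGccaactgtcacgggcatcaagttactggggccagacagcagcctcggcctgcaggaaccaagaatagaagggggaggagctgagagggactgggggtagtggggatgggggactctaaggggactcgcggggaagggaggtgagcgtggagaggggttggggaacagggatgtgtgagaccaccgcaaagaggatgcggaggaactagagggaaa
Dll3: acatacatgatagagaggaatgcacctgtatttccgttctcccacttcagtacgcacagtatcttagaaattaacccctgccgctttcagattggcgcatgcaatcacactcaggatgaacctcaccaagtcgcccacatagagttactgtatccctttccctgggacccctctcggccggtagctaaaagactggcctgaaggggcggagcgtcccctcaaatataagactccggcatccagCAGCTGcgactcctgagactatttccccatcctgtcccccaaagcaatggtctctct
CAGCTG reads the same on both strands and was found in 16.3% of all 32851 promoters of this length. That share counts promoters, which belong to 27025 gene symbols. The counts of genes that follow take a gene as holding the E-box if any of its promoters does, so the units differ. Of the 14 neurogenic genes called higher 9 have a promoter in the table, and 4 of them hold it, against 8 of the 16 members tested, called or not, that have one. A match is a description of letters and not a measured site.

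Genes of postmitotic neurons rose as well: 20 of 28 members were called higher, none lower, and the median log2 difference was 2.18. Without D7 replicate 3 it was 15 of 28, and 14 calls held. Dcx, a microtubule protein of migrating young neurons, stood at 46.8, 72.1 and 39.7 normalised counts at D5 and 761, 869 and 1450.2 at D7. Every D7 library was more than 10 times the highest at D5 (4.24 ± 0.43, adjusted p = 6.3e-10). Nefl, the neurofilament light chain, stood at 289 to 456 at D5 and 2470.1 to 9011 at D7 (3.69 ± 0.44, adjusted p = 3.3e-08), and Gap43, a growth cone protein, at 161 to 189 at D5 and 1359 to 4076 at D7 (3.62 ± 0.44, adjusted p = 4.7e-08). Cntn2, an adhesion molecule of early axons, rose, with 0.827 to 3.52 at D5 and 178 to 672 at D7 (6.72 ± 0.79, adjusted p = 2.7e-08). D7 replicate 3 was the highest library for all 4. Summed over the list, levels were 12280.1 to 12506 at D5, 34412 to 42292 in D7 replicates 1 and 2 and 79457 in D7 replicate 3. In sorted bulk samples a larger share of neurons in the gate and more neuronal RNA per progenitor cannot be told apart, and the same holds for fewer cells and less RNA per cell in each list below.

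Of RNA-binding proteins of neural cells 6 of 23 members rose and 5 of these calls held. Elavl3 and Elavl4, stabilisers of neuronal mRNAs, stood at 72.7 to 133 at D5 and 341 to 470.4 at D7, and at 467 to 624 at D5 and 2145 to 2189 at D7 respectively (2.07 ± 0.39 and 1.96 ± 0.28; adjusted p = 0.00025 and 3e-06). Rbfox1 and Nova2, splicing regulators, rose from at most 1.99 and 2.64 at D5, by 5.29 ± 0.94 and 3.95 ± 0.74 (adjusted p = 0.00011 and 0.00024). The progenitor splicing repressor Ptbp1 was lower in each D7 library, 7939 to 12566 at D5 and 5196 to 7259 at D7, and was not called (adjusted p = 0.13). Among axon guidance genes 6 of 32 rose. Cntn2 is one of them. The ephrin receptor Epha5 (3.96 ± 0.61, adjusted p = 1.1e-05) and the repellent Slit3 (2.00 ± 0.49, adjusted p = 0.0068) held, and Slit2 (2.28 ± 0.52, adjusted p = 0.0036) ended without D7 replicate 3 (adjusted p = 0.054).

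Markers of motor neurons, which arise from pM, rose in the p2 gate as well, and Lhx3, Slit2 and Slit3 above are among them. Of 14 members 8 were called higher, 6 of which held, with summed levels of 1526 to 2072 at D5, 3583 to 4581 in D7 replicates 1 and 2 and 6185 in D7 replicate 3. Isl1, a LIM factor of motor neurons and other neurons, stood at 54.8, 49.3 and 71.1 normalised counts at D5 and 241, 463 and 459 at D7 (2.67 ± 0.48, adjusted p = 0.00012). Isl2, its motor neuron relative, stood at 1.65 to 1.99 at D5 and 98.0 to 353 at D7, and Slc18a3, the transporter that loads acetylcholine into vesicles, at 26.4 to 58.7 at D5 and 483 to 1136 at D7 (adjusted p = 5.1e-05 and 0.0001). Prph, the neurofilament protein peripherin, rose by 4.55 ± 0.92 (adjusted p = 0.00081). Olig2, the pM progenitor factor, overlapped in the same libraries (18.9 to 113 at D5 and 46.4 to 86.8 at D7). Whether motor neurons in the gate took part in the neuronal rises was not tested.

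**Figure D3:**
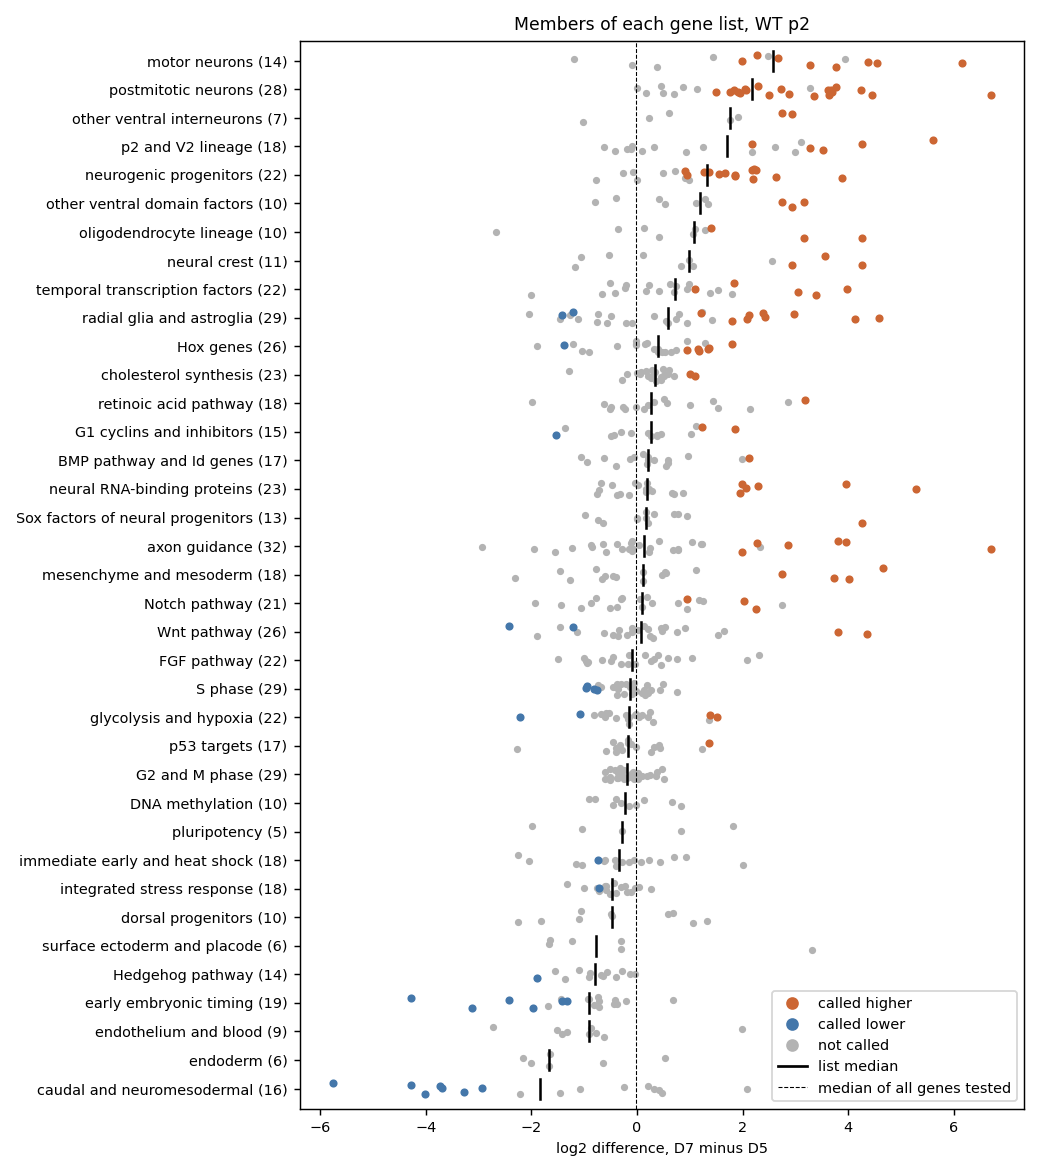
Log2 differences (x axis, D7 minus D5) of every tested member of 37 gene lists, ordered by list median, with the number tested in brackets. Orange and blue points were called higher and lower, grey points were not called, black bars are list medians and the dashed line is the median of all genes. Neuronal and V2 lists have medians above 1.3, and the caudal list has a median of -1.83.

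Genes of the caudal embryo and of neuromesodermal progenitors, the cells from which trunk spinal cord forms, fell in part: 7 of 16 tested members were called lower and none higher (1 was higher at an unadjusted p under 0.05, none in edgeR or DESeq2), with a median log2 difference of -1.83 (-1.75 with the member at 0 on D7 set to its bound). edgeR and DESeq2 each called 3 lower. A further 7 members were too low to be tested. Cdx2, a homeobox factor of caudal identity, stood at 29.9, 37.0 and 59.5 normalised counts at D5 and 0.97, 3.80 and 0 at D7, so that D7 libraries were near 0 (-4.29 ± 0.75, adjusted p = 9.4e-05). Cdx1 fell, with 13.2 to 20.9 at D5 and 0 to 6.09 at D7 (adjusted p = 0.0098; adjusted p = 0.088 without D7 replicate 3). Cdx4 held 43 reads over the D5 libraries and 0 at D7, at least 4.15-fold lower at a floor of 3 reads per library. Nkx1-2, a marker of the neuromesodermal state, held 64 reads at D5 and 1 at D7, a ratio of 59.6 (95% Poisson interval 10.3 to 2391). Hes3, a Hes factor of early neural cells, fell by 2.94 ± 0.90 on the log2 scale (adjusted p = 0.037), with an adjusted p of up to 0.16 when 1 library was left out.

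Grb7, an adaptor of receptor tyrosine kinases, fell too. It stood at 458, 460.1 and 424 normalised counts at D5 and 9.70, 22.1 and 1.29 at D7 (-5.76 ± 0.94, adjusted p = 2.5e-05), tight at D5 and low in all D7 libraries. The calls of Cdx2, Cdx4, Nkx1-2 and Grb7 held over single libraries. DESeq2 called none of Cdx2, Cdx4 and Nkx1-2 (its adjusted p was 0.21, 0.77 and 0.14), and edgeR called neither Cdx4 nor Nkx1-2 (its adjusted p was 0.096 and 0.062). The Wnt target Sp5 (20.9 to 134 at D5 and 6.79 to 36.5 at D7) and the neuromesodermal factor T (12.9 to 29.0 at D5 and 0 to 17.5 at D7) overlapped between the days. Epha1, an ephrin receptor, fell as well, with 17.6 to 71.9 at D5 and 0 to 7.73 at D7 (adjusted p = 0.015; up to 0.12 when 1 library was left out). Cyp26a1, counted here and among retinoid genes, was not called.

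Hox genes, which set position along the body axis, changed in both directions. Of 26 tested members 6 rose and 1 fell, and 13 members, all of paralogue groups posterior to Hoxb9 or Hoxd9 itself, were too low to be tested. Hoxb6 stood at 456, 364 and 456 normalised counts at D5 and 1523, 1188 and 1778 at D7 (1.80 ± 0.20, adjusted p = 3.8e-09). Its neighbours Hoxb5 and Hoxb7 rose by 1.35 ± 0.29 and 1.37 ± 0.29 (adjusted p = 0.0015 and 0.0018), and the 3 calls held. Hoxa2, Hoxa5 and Hoxd8 also rose (1.16 ± 0.30, 0.95 ± 0.28 and 1.18 ± 0.36) and were not called without D7 replicate 3 (adjusted p = 0.12, 0.077 and 0.13). Hoxb1 was lower in each D7 library, 389 to 757 at D5 and 134 to 169 at D7, and was not called (adjusted p = 0.098). Hoxb9, the most posterior Hoxb gene tested, overlapped (1005 to 2305 at D5 and 554 to 1199 at D7).

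Retinoid genes were examined because retinoic acid left the medium between the days compared. Of 18 tested members 1 rose, none fell (1 was lower at an unadjusted p under 0.05, none in edgeR or DESeq2), and the median log2 difference was 0.27. Well-known direct targets of the retinoic acid receptors were not called. Rarb, a receptor gene that its own ligand induces, stood at 2711, 1904 and 1719.6 normalised counts at D5 and 2276, 2328 and 1629 at D7. The days overlapped, with a difference of -0.01 ± 0.20 (95% interval -0.41 to 0.39, adjusted p = 0.98) that turned positive without D7 replicate 3. Cyp26a1, the enzyme that degrades retinoic acid, stood at 1333, 414 and 706 normalised counts at D5 and 903, 823 and 1015 at D7 (0.32 ± 0.55, 95% interval -0.79 to 1.43, adjusted p = 0.8). Dhrs3, an enzyme that returns retinal to retinol, was higher in each D7 library, 115 to 284 at D5 and 394 to 617 at D7, and was not called (adjusted p = 0.055). Crabp2, a carrier of retinoic acid in the cell, stood at 57929.8 to 63041 at D5, 32735 and 28231 in D7 replicates 1 and 2 and 66409.9 in D7 replicate 3 (adjusted p = 0.43). Of the enzymes that make retinoic acid, Aldh1a2 overlapped, with 186 to 247 at D5 and 239.5 to 1511 at D7. Exons of Rarb share 34.1% of their length with Top2b on the opposite strand, and whether counting used strand is not given in the sources used here.

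The promoters of Rarb and Cyp26a1 are shown since both hold the same pair of spaced half-sites for retinoic acid receptors and neither gene was called after withdrawal. The pair was searched on both strands as GTTCA, 6 bases of any kind and GTTCA again, and is in capitals. Rarb lies at chr14:16575427-16575726 (minus strand, match starting at -52) and Cyp26a1 at chr19:37697558-37697857 (plus strand, -32, matched on the other strand), from RefSeq (GRCm38.p6).
Rarb: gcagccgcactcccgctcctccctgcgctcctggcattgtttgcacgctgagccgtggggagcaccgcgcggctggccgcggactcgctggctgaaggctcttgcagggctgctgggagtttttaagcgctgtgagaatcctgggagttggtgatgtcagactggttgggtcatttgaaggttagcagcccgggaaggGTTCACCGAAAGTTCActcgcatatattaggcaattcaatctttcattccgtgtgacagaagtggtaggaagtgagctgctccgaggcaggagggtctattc
Cyp26a1: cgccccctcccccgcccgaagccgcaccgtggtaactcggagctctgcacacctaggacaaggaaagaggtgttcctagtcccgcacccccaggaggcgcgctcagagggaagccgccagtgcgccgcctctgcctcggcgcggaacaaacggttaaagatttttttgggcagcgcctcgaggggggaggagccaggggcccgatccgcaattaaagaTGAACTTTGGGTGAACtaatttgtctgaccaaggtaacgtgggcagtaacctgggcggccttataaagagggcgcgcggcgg
Only 25 of the 32851 promoters (0.076%) hold this pair, and 2 of the 15 tested retinoid genes with a promoter in the table do. As with the E-box, the first share counts promoters and the second counts genes. Binding was not measured in these libraries.

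Genes of early embryonic timing fell in part: 6 of 19 were called lower and none higher (none at an unadjusted p under 0.05, in edgeR or in DESeq2), 14 had D7 libraries all below D5 (13.3% of all genes did), and the median log2 difference was -0.91. Prtg, the cell surface protein protogenin of early neural tissue, stood at 10154, 17412 and 12842 normalised counts at D5 and 1648, 1787 and 1137 at D7. Every D7 library was far below the lowest at D5 (-3.13 ± 0.30, adjusted p = 1.6e-10). Nr6a1, a nuclear receptor that controls trunk development, fell, with 2329 to 3233 at D5 and 441 to 619 at D7 (-2.42 ± 0.50, adjusted p = 0.0011). Both calls held, as did that of Cdx2. Lin28a, which blocks maturation of let-7 microRNAs, stood at 4042, 3171 and 3715 normalised counts at D5 and 1288, 902 and 681 at D7 (-1.97 ± 0.53, adjusted p = 0.016). D7 replicate 3 was its lowest library, and without it the adjusted p was 0.1, which ends the call. Lin28b (-1.32 ± 0.39) and the chromatin-binding factor Arid3b (-1.41 ± 0.42) fell as well (adjusted p = 0.029 and 0.033; up to 0.18 and 0.11 when 1 library was left out). Hmga2, a chromatin protein of young progenitors and target of let-7, was not called (3412 to 6176 at D5 and 2155 to 3431 at D7, adjusted p = 0.053).

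On the other side, 5 of 22 temporal transcription factors rose and none fell. Nfib, an NFI factor of the glial switch, stood at 0.996, 0.88 and 2.48 normalised counts at D5 and 40.7, 25.1 and 45.1 at D7 (3.97 ± 0.59, adjusted p = 4.6e-06). Its level was low even at D7. Nfia, its partner and the antigen of the gate, stood at 7.97, 43.1 and 9.09 normalised counts at D5 and 98.9, 44.1 and 36.1 at D7. D5 replicate 2 reached the level of D7 replicate 2, and the call was missed (1.80 ± 0.59, adjusted p = 0.053). Npas3, a bHLH-PAS factor of neural progenitors, stood at 12.9 to 42.2 at D5 and 144 to 323 at D7 (3.06 ± 0.50, adjusted p = 2.5e-05), and Pou2f2, a POU factor of intermediate-born neurons, at 3.52 to 4.13 at D5 and 33.5 to 84.4 at D7 (3.40 ± 0.81, adjusted p = 0.005). The calls of Nfib, Npas3 and Pou2f2 held. Onecut2, a factor of early-born neurons, and Pou3f3, a POU factor of neural cells, rose by 1.84 ± 0.59 and 1.09 ± 0.32 (adjusted p = 0.049 and 0.03) and lost the call without D7 replicate 3 (adjusted p = 0.27 and 0.062). Sox9, a factor of the glial program, overlapped, with 1108 to 1334 at D5 and 947 to 3877 at D7 (adjusted p = 0.46).

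Radial glial and astroglial genes split. Of 29 tested members 9 rose, 8 of which held, and 2 fell. Fabp7, a lipid carrier of radial glia, stood at 229, 269 and 188 normalised counts at D5 and 4835, 3040.1 and 10977 at D7 (4.58 ± 0.63, adjusted p = 9.7e-07). The glutamate transporters Slc1a3 and Slc1a2 stood at 245 to 295 at D5 and 942 to 987 at D7, and at 34.7 to 93.3 at D5 and 252 to 310.3 at D7 respectively (1.80 ± 0.35 and 2.39 ± 0.40; adjusted p = 0.00036 and 3.9e-05). Ttyh1, a membrane protein of neural stem cells, rose by 2.97 ± 0.31 (adjusted p = 1.7e-09). Gja1, the gap junction protein connexin 43, moved the other way: it stood at 7255, 6601 and 7479 normalised counts at D5 and 3184, 2994 and 1939 at D7 (-1.43 ± 0.33, adjusted p = 0.004), and without D7 replicate 3 its adjusted p was 0.057. Aldoc, an aldolase of astrocytes, fell by 1.22 ± 0.37 on the log2 scale (adjusted p = 0.036; up to 0.16 when 1 library was left out). Of 10 oligodendrocyte lineage genes 3 rose. Sox10, shared with neural crest, and Nkx2-2, shared with the p3 domain, were low, with 0 to 4.13 at D5 and 22.8 to 40.0 at D7 for Sox10 and 0 to 2.48 at D5 and 11.6 to 30.1 at D7 for Nkx2-2. Cnp, an enzyme of myelin, rose by 1.39 ± 0.26 (adjusted p = 0.00017).

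Signalling pathways moved in few members, where 4.45% of all genes were called higher and 2.22% lower. In the Hedgehog pathway, for which SAG was kept on both days, 1 of 14 members fell (3 in edgeR and 3 in DESeq2) and none rose (none at an unadjusted p under 0.05, in edgeR or in DESeq2). All 14 had negative log2 differences, where 6935 of all 13438 genes did, with a median of -0.79 against -0.03 for all genes. Gas1, a surface co-receptor for Sonic hedgehog, stood at 1780.2, 2276 and 1522 normalised counts at D5 and 502, 497 and 469 at D7 (-1.90 ± 0.61, adjusted p = 0.049). Its call ended without any 1 of the 6 libraries, with adjusted p up to 0.19. The co-receptor Cdon (138 to 257 at D5 and 42.5 to 60.1 at D7, adjusted p = 0.073) and the target Gli1 (275 to 282 at D5 and 156 to 221 at D7, adjusted p = 0.56) were lower in each D7 library and were not called, and Ptch1, the receptor and a target, overlapped (67.8 to 127 at D5 and 43.8 to 86.8 at D7). Without D7 replicate 3 the list median was -0.48.

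In the Wnt pathway, activated by CHIR99021 before D5, 2 of 26 members rose and 2 fell. The ligand Wnt7a stood at 187, 44.9 and 78.5 normalised counts at D5 and 1393, 1573 and 857 at D7 (3.81 ± 0.46, adjusted p = 4.7e-08), and its relative Wnt7b stood at 2.64 to 19.0 at D5 and 73.5 to 449.7 at D7 (4.37 ± 0.76, adjusted p = 8.6e-05). Both calls held. Lef1, a nuclear effector that the pathway also induces, fell, with 313 to 529 at D5 and 73.5 to 94.4 at D7 (-2.42 ± 0.58, adjusted p = 0.0057), and the receptor Fzd10 fell by 1.21 ± 0.29 on the log2 scale (adjusted p = 0.006; 0.068 without D5 replicate 2). None of 22 FGF pathway members was called by limma, edgeR or DESeq2, with 2 higher and 2 lower at an unadjusted limma p under 0.05. Among 17 BMP pathway members Id4, an inhibitor of bHLH factors, rose, with 27.9 to 64.2 at D5 and 159 to 211 at D7 (adjusted p = 0.0068).

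Few cell cycle genes were called. Of 29 genes of G2 and M phase none was called by limma, edgeR or DESeq2 and 1 was lower at an unadjusted limma p under 0.05, with a median log2 difference of -0.20. Of 29 S phase genes 4 fell (Mcm4, Mcm6, Cdt1 and Pola1, all of DNA replication), with differences of -0.82 ± 0.21, -0.96 ± 0.24, -0.77 ± 0.22 and -0.94 ± 0.27. None of these 4 was called without D7 replicate 3, where the adjusted p was 0.18, 0.14, 0.3 and 0.15. Of 15 G1 genes, Ccnd2, the cyclin D2 of neural progenitors, fell: it stood at 75072, 77393 and 71181 normalised counts at D5 and 29339, 36597 and 16084 at D7 (-1.53 ± 0.31, adjusted p = 0.00071), and the call held, though it ended with quantile normalisation (adjusted p = 0.078). Cdkn2d, the inhibitor p19 of cyclin D kinases, rose, with 814 to 986 at D5 and 1757 to 2549 at D7 (1.22 ± 0.22, adjusted p = 0.00016).

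Metabolic lists moved in single genes, where 4.45% of all genes were called higher and 2.22% lower. Of 22 genes of glycolysis and hypoxia 2 rose and 2 fell. Slc2a1 and Slc2a3, glucose transporters, fell, with 20487 to 28363 at D5 and 11243 to 12890.3 at D7, and 1160.4 to 1884 at D5 and 213 to 462 at D7 respectively (adjusted p = 0.0044 and 0.031; that of Slc2a3 was 0.17 without D7 replicate 3). Bnip3, a hypoxia-induced gene of mitophagy, rose, with 1626 to 2119 at D5 and 4615 to 4872 at D7 (1.38 ± 0.30, adjusted p = 0.0018). In cholesterol synthesis 20 of 23 had positive log2 differences, where 6503 of all 13438 genes did. In that list 2 rose (Mvk by 1.09 ± 0.34 and Tm7sf2 by 1.01 ± 0.31), and neither call was made without D7 replicate 3 (adjusted p = 0.35 and 0.37). The integrated stress response had 1 fall in 18, Mthfd2 of mitochondrial folate metabolism (-0.72 ± 0.19, adjusted p = 0.015; 0.1 at most when 1 library was left out). Among 18 immediate early and heat shock genes the chaperone Hsph1 fell (-0.75 ± 0.19, adjusted p = 0.011; up to 0.12), and among 17 p53 targets Btg2 alone rose. None of 10 genes of DNA methylation was called by limma, edgeR or DESeq2, with 1 higher and 3 lower at an unadjusted limma p under 0.05.

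Factors of the other ventral domains rose in 3 of 10 and markers of other ventral interneurons in 2 of 7. En1, the factor of V1 neurons that p1 makes, stood at 1.99, 0.88 and 4.13 normalised counts at D5 and 23.3, 16.7 and 19.3 at D7 (2.75 ± 0.78, adjusted p = 0.023), and Foxd3, shared with neural crest, rose by 2.93 ± 0.93 (adjusted p = 0.044); both are on the 2 lists. Neither call held, with adjusted p up to 0.14 and 0.2, and neither did that of Nkx2-2 (0.071).

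Markers of cells that the gate should not hold moved in a few members. Of 18 tested mesenchyme markers 4 rose (Col3a1, Dcn, Lum and Postn, all of extracellular matrix), with 90.1 to 135 at D5 and 393 to 1283 at D7 for Col3a1, and none of these calls was made without D7 replicate 3 (adjusted p = 0.18 for Col3a1). Summed levels of the list were 1621 to 1851 at D5, 1038 to 1786 in D7 replicates 1 and 2 and 3639 in D7 replicate 3. Neural crest markers rose in 3 of 11 (Sox10, Dlx2 and Foxd3), none above 40.0 normalised counts. No tested marker of dorsal progenitors, endoderm, endothelium and blood, surface ectoderm or pluripotency was called by limma, edgeR or DESeq2. In limma without adjustment, 1, 0, 1, 1 and 0 members of these lists, in that order, had p under 0.05. What part these cells have in the results above was not tested.

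The largest rises over all genes on the fitted log2 scale were, among others, in genes of neurons and secreted proteins. Uts2b, a peptide related to urotensin, stood at 0 in all D5 libraries and at 214, 351 and 2815 at D7, at least 417-fold higher at a floor of 3 reads per library. Sncg, the synuclein of peripheral and motor neurons, stood at 6.97 to 15.0 at D5 and 633 to 4210.2 at D7 (6.87 ± 0.57, adjusted p = 3.1e-12). In both genes D7 replicate 3 was several times the other D7 libraries, and the difference was 5.99 for Sncg without it. Crp, the acute-phase protein, had 1 read over the D5 libraries and 516 at D7, a ratio of 554 (95% Poisson interval 99.0 to 21923). Tspan17, a tetraspanin, stood at 24.9, 1.76 and 20.7 normalised counts at D5 and 1028, 822 and 1316 at D7, and Slc10a4, a vesicle protein of cholinergic and aminergic neurons, at 18.9, 2.64 and 4.96 normalised counts at D5 and 323, 647 and 976 at D7 (6.49 ± 0.47 and 6.29 ± 1.00; adjusted p = 5e-14 and 1.8e-05). Ecel1, a peptidase of neurons, rose, with 3.52 to 5.97 at D5 and 239 to 494 at D7.

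The largest falls on that scale were, among others, in genes of membrane proteins. Cldn9, a claudin of tight junctions, had 308 reads at D5 and 3 at D7, a ratio of 95.6 (95% Poisson interval 32.4 to 466). Ifitm1, an interferon-induced membrane protein of early embryos, stood at 1446, 1908 and 1759 normalised counts at D5 and 41.7, 44.1 and 115 at D7 (-4.80 ± 0.66, adjusted p = 9.3e-07). It was the most abundant of the 12 largest falls. Ano1, a chloride channel, and Etv2, an ETS factor of early endothelium, fell, with 133 to 211 at D5 and 1.29 to 37.8 at D7, and 80.6 to 114 at D5 and 0 to 28.4 at D7 respectively (adjusted p = 0.0039 and 0.013), and neither call held: the adjusted p of Ano1 was 0.061 without D7 replicate 3, and that of Etv2 reached 0.13 when 1 library was left out. Col25a1, a membrane collagen, fell, with 56.2 to 88.9 at D5 and 0.761 to 2.58 at D7 (adjusted p = 0.0061), and its call held.

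Whether p2 differed from its neighbours over the same 2 days was asked with a test of the difference between the steps. Against p1, 6 genes (0.0446% of those tested) had a smaller log2 difference in p2 and none a larger one (187 were larger at an unadjusted p under 0.05, none in edgeR and 7 in DESeq2). That fit takes libraries as independent, while same-numbered libraries of the same day and genotype had a correlation of 0.44. With that correlation modelled in limma, 23 genes differed from p1, 13 smaller and 10 larger in p2. Prmt8, an arginine methyltransferase of neurons, stood at 234 to 367 at D5 and 527 to 691 at D7 in p2, and at 24.5 to 51.0 and 457 to 569.7 in p1. The difference of the steps was -2.69 ± 0.34 (limma adjusted p = 6.4e-06). Nhlh1 and Neurod4, bHLH factors of newborn neurons, Ppp1r17, a phosphatase inhibitor, Gadd45g and the neuronal splicing regulator Srrm4 also had lower differences in p2, by -4.08 ± 0.68, -2.65 ± 0.51, -3.51 ± 0.70, -1.69 ± 0.35 and -2.81 ± 0.58. In p1 all 6 had lower D5 means than in p2: for Neurod4 105.7 ± 41.9 against 1359 ± 405 (SD, n = 3 each). With D7 replicate 3 left out of both domains 3 genes were called lower, Prmt8, Nhlh1 and Srrm4 (limma adjusted p = 5.6e-05, 0.015 and 0.048).

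Fitted on the compared groups alone, none of the 6 was called. Against pM, whose D5 group has 2 libraries, 7 genes (0.0521%) had a larger difference in p2 and none a smaller one (197 were smaller at an unadjusted p under 0.05, none in edgeR and 2 in DESeq2). With the correlation modelled, 71 genes differed from pM, 62 larger and 9 smaller in p2. Ppp1r17 rose in p2, with 112 to 206 at D5 and 487 to 1205 at D7, and fell in pM, with 546 to 576 and 79.9 to 198, a difference of 4.26 ± 0.74 (limma adjusted p = 0.0086). Rassf4, a Ras association protein, Sstr2, a somatostatin receptor, and the peptide galanin (Gal) were likewise higher at D7 in p2 and lower at D7 in pM, with differences of 4.78 ± 0.90, 3.33 ± 0.68 and 6.75 ± 1.25. Resp18, an endocrine secretory protein, Actl6b, the neuronal subunit of the BAF chromatin complex, and Aplp1, a neuronal relative of the amyloid precursor, rose in p2 with no call in pM, and differed by 4.31 ± 0.87, 4.62 ± 0.96 and 2.54 ± 0.54. With D7 replicate 3 left out of both domains none was called, with adjusted p between 0.14 and 0.3. Of the 5 p2 and V2 genes that rose none passed this test: Lhx3 differed by 0.09 ± 0.71 from p1 (adjusted p = 1) and 0.17 ± 0.76 from pM (adjusted p = 1).

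**Figure D4:**
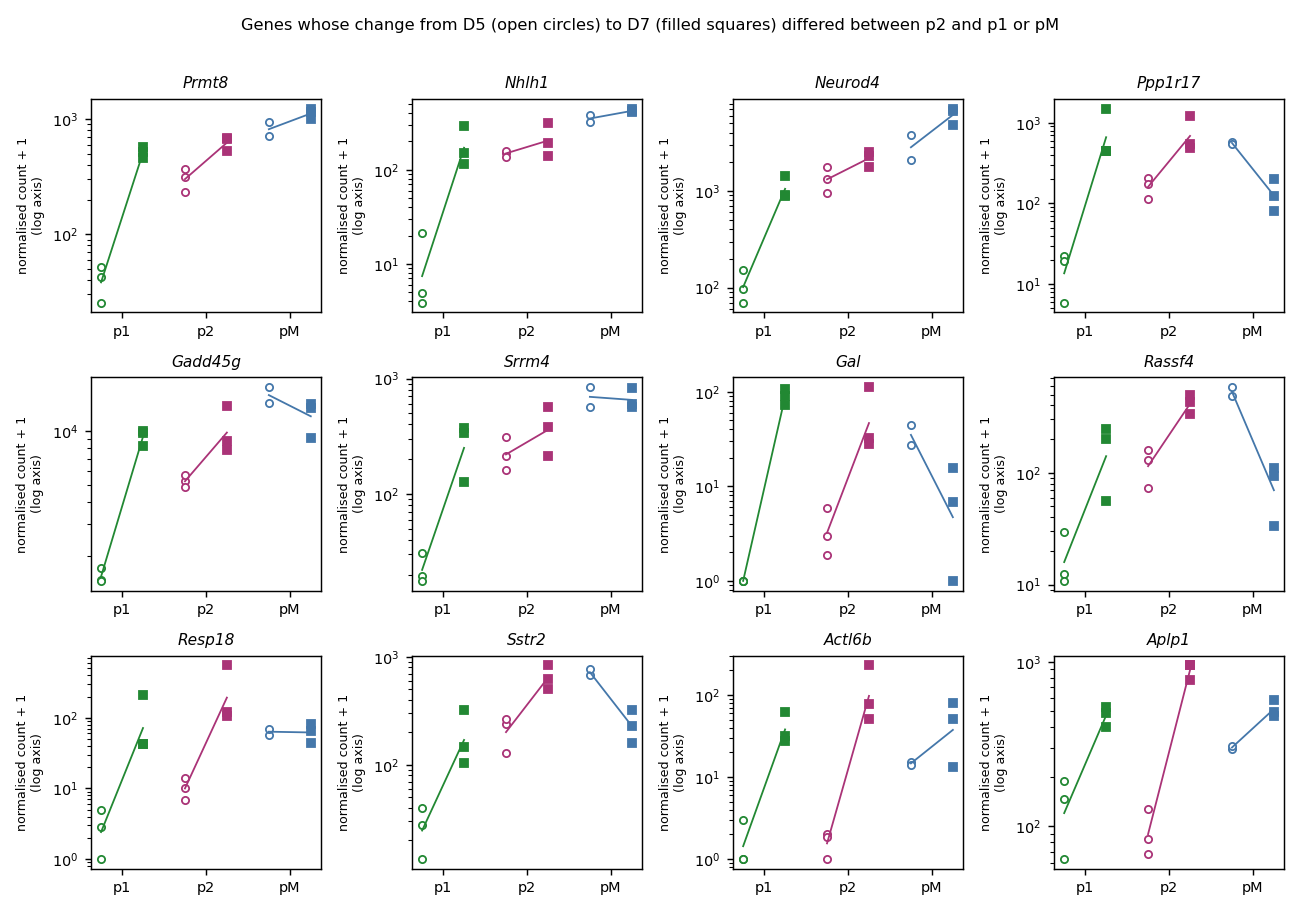
Normalised count + 1 (log axis) in WT p1, p2 and pM for the 12 genes whose D5 to D7 change differed between p2 and p1 or pM. Open circles are D5 libraries, filled squares D7 libraries, and lines join geometric means. The p1 lines of Prmt8, Nhlh1, Neurod4, Srrm4 and Ppp1r17 start low at D5 and rise, and pM lines for Ppp1r17, Gal, Rassf4 and Sstr2 run downward.

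MUT p2 cells gave a separate set of D5 and D7 libraries, 3 for each day, grown and sorted the same way. Of the 598 genes that rose in WT p2, 585 (97.8%) had a positive difference in MUT, where 48.8% of all genes did, and 388 were called there. That is 64.9% of the WT rises and 61.8% of the 628 rises called in MUT (4.67% of genes). Of the 298 falls, 294 (98.7%) were negative in MUT and 106 were called, 35.6% of the WT falls and 45.1% of the 235 in MUT (1.75% of genes, and 6.42% in both directions). Side by side, the differences in WT and MUT were 3.28 ± 0.51 and 3.36 ± 0.51 for Lhx3, -5.76 ± 0.94 and -4.09 ± 0.94 for Grb7, and -3.13 ± 0.30 and -3.11 ± 0.30 for Prtg. Rarb (-0.14 ± 0.20) and Cyp26a1 (0.55 ± 0.55) had no call in MUT. MUT D7 replicate 3 also had a high total (34.6 M) and ribosomal share (17.3%), and MUT D5 replicate 2 was shallow (8.74 M recovered reads), and the difference between genotypes was not tested here.

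Later WT p2 libraries place the D7 levels on a course, given as means without a test. Lin28a went from 3643 ± 440.2 (SD, n = 3) at D5 and 957 ± 307 (SD, n = 3) at D7 to 189.8 ± 38.1 (SD, n = 3) in NFIAn cells at D9 and 30.3 ± 4.96 (SD, n = 2) in NFIAp cells at D11. Nr6a1 and Prtg had the same order, reaching 51.7 ± 1.26 (SD, n = 2) and 61.2 ± 4.31 (SD, n = 2). Fabp7, at 6284 ± 4162 (SD, n = 3) on D7, reached 114838 ± 73991 (SD, n = 2), and Nfib, at 37.0 ± 10.5 (SD, n = 3), reached 2202 ± 636 (SD, n = 2). Vsx1 and Hes6 had their highest means in NFIAn cells at D9, with 2144 ± 329 (SD, n = 3) and 43625 ± 10280.0 (SD, n = 3), and lower means in NFIAp cells of that day, with 597 ± 199.6 (SD, n = 3) and 22037 ± 5277 (SD, n = 3). At D9 replicates 2 and 3 had high totals in NFIAn (32.7 and 29.9 M) and NFIAp cells (28.8 and 26.6 M). Replicate 1 had 22.4 and 21.3 M, and it was lowest for Vsx1 and Hes6 in both gates. For Hes6 in NFIAn cells replicates 1 to 3 stood at 32030, 51625 and 47220. What part these totals have in the means was not tested. Cdx2 was listed at 0 in each of the later p2 libraries plotted. Tubb3, a tubulin of neurons, is in the plot too and was chosen after its values were seen. Only NFIAp cells are among these libraries at D11, so day and gate cannot be told apart there.

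**Figure D5:**
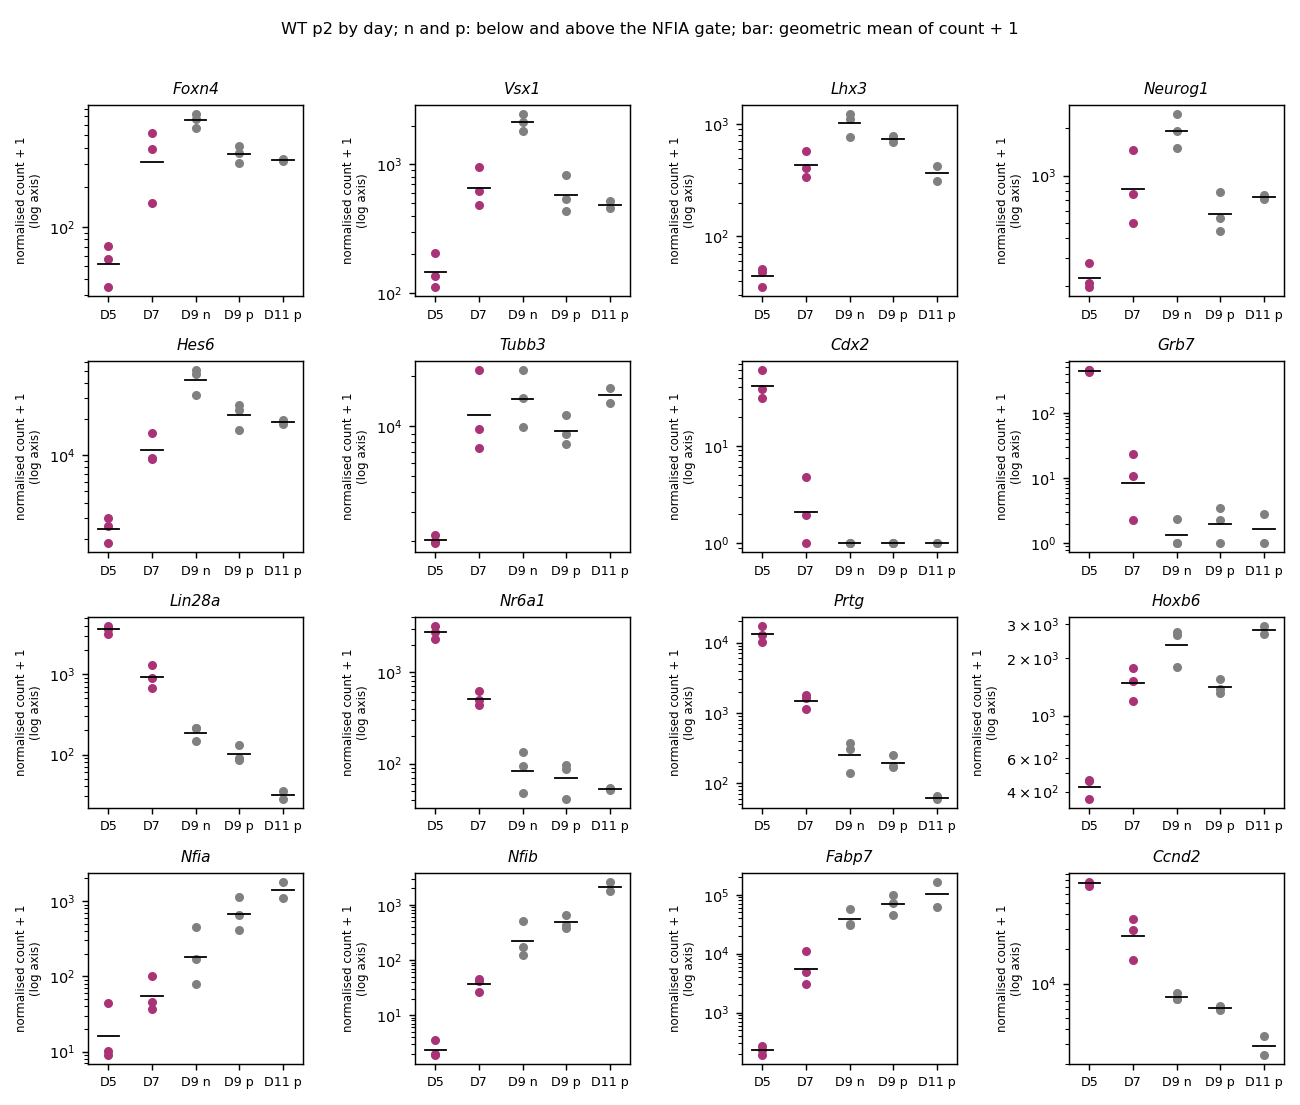
Normalised count + 1 (log axis) of 16 genes in each WT p2 library by day, with n and p for cells labelled NFIAn and NFIAp and bars for geometric means. Purple points are the D5 and D7 libraries compared here. Lin28a, Nr6a1, Prtg and Ccnd2 step down through all groups, Nfia, Nfib and Fabp7 step up, and Vsx1 is highest at D9 in NFIAn cells.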

How the data were processed

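Polyadenylated RNA from glyoxal-fixed, stained and sorted cells was sequenced in 66 libraries, of which the 6 WT p2 NFIAn libraries of D5 and D7 are compared here. The authors deposited 1 table of normalised counts (a signal, gene counts divided by a size factor for each library) for 24410 gene symbols. Per the submitters' processing notes the build is mm10 and DESeq2 was used, and the aligner, counter, versions and use of strand are not given in the sources used here. In each library 100% of the deposited values were whole multiples (within 0.01 of a read) of the value of 1 read, and recovered reads are those multiples.

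Genes with a normalised count of at least 10 in at least 2 of the 6 libraries were tested (13438). The main test was limma 3.58.1 (R 4.3.3) on log2 of the normalised count plus a pseudocount of 1, using a trend of variance with level, group means for the 26 groups of the 66 libraries, hence one shared estimate of spread, and Benjamini-Hochberg adjustment. Fold changes on this scale understate those of low genes. The difference between domains was tested as an interaction in the same fit. edgeR 4.0.16 and DESeq2 1.42.0 were run on recovered reads as alternatives, and the scripts were tested on simulated data. Other alternatives were a pseudocount of 8, no low-value filter, TMM scaling, quantile normalisation, the compared groups alone, a replicate block, correlated replicates and each library left out. Added after seeing the data were an adjustment by exon length (20 length bins, lengths from GENCODE M21 for 96.1% of tested genes) and leaving out the 18 libraries with totals over 26 M.

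The members and the 37 gene lists (702 genes, written from textbook knowledge) were chosen with earlier results of these data known, so no list was given a set test. Named genes are the 12 largest rises and falls among called genes whose groups did not overlap and whose higher group had a mean of 50 or more, passing over gene models, clones and pseudogenes, any member of the p2 and V2, neurogenic, Notch, caudal, retinoic acid, Hedgehog, early timing, temporal factor, Sox and Hox lists, for every other list up to 4 members each way by adjusted p, and for each difference between domains the first 6 each way by adjusted p. Not all genes the rule allows are printed, and some members counted in the lists are not reported here by name. Aplp1, Dbx1, Nanog, Olig2 and Tubb3 fall outside it and were named after their values were seen. Libraries of one group were compared by a chi-squared test on recovered reads, which gave at least 25.5 per degree of freedom, so none is a copy of another. Intervals from reads cover counting error only. Promoters were matched by symbol for 525 of the 702 list genes.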

Additional observations from a re-analysis of the deposited data

Results flagged for a closer look

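All 13 differences here were flagged because a test of the difference itself, the interaction of day and domain in limma, passed an adjusted p of 0.05. Against p1 the D5 to D7 change was smaller in p2 for Prmt8 (-2.69 on the log2 scale), Nhlh1 (-4.08), Neurod4 (-2.65), Ppp1r17 (-3.51), Gadd45g (-1.69) and Srrm4 (-2.81). All 6 had D5 means in p2 between those of p1 and pM. For Nhlh1 these means were 9.06 ± 9.84 (SD, n = 3) in p1, 149 ± 10.7 (SD, n = 3) in p2 and 351 ± 46.4 (SD, n = 2) in pM. Against pM the change was larger in p2 for Ppp1r17 (4.26), Gal (6.75), Rassf4 (4.78), Resp18 (4.31), Sstr2 (3.33), Actl6b (4.62) and Aplp1 (2.54). All 7 had D5 means in p2 below those in pM. Actl6b stood at 0.625 ± 0.544 (SD, n = 3) at D5 in p2 and 13.7 ± 0.792 (SD, n = 2) in pM. Groups of 3 libraries are too small for the rule on outlying samples, so none was flagged by it.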

How the results depend on the processing

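All 110 called genes named or plotted above kept their sign under each alternative run. The number that lost the call was 36 with the compared groups alone, 29 without the libraries of high total, 27 with the replicate block, 15 after the exon length adjustment, 13 with correlated replicates, 11 in edgeR, 6 without the low-value filter, 5 in DESeq2, 4 with a pseudocount of 8, 4 with TMM scaling and 4 with quantile normalisation, and 14 to 38 when 1 library was left out. Genes named or plotted as not called gained a call too: 8 in DESeq2, 8 with quantile normalisation, 8 with the replicate block, 6 with the compared groups alone, 6 without the libraries of high total, 5 with a pseudocount of 8, 3 after the length adjustment, 3 with correlated replicates, 2 in edgeR, and 0 to 2 when 1 library was left out. The cause was not tested, except that the compared groups alone leave fewer samples for the spread.

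Of 896 calls in total (598 higher, 298 lower), edgeR on recovered reads made 801, DESeq2 1173 and quantile normalisation 1210. The compared groups alone gave 402 (308 higher, 94 lower), and leaving out 1 library gave 433 to 788 (327 to 510 higher, 106 to 278 lower).

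Against p1 the 6 calls (0 higher, 6 lower) became 3 lower with a pseudocount of 8, 10 with 3 higher without the filter, 17 (7 higher, 10 lower) in DESeq2, 0 with the compared groups alone, 23 (10 higher, 13 lower) with correlated replicates, 3 lower without D7 replicate 3 of both domains, and 2 (1 higher, 1 lower) without the libraries of high total. Quantile normalisation gave 2 higher and the length adjustment 1 higher. Leaving out 1 library gave 2 to 7 (0 to 2 higher, 2 to 7 lower).

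Against pM the 7 calls (7 higher, 0 lower) became 14 higher in edgeR, 34 (32 higher, 2 lower) in DESeq2, 71 (62 higher, 9 lower) with correlated replicates, 0 without D7 replicate 3 of both domains and 0 without the libraries of high total. Without the filter 1 was lower. Leaving out 1 library gave 0 to 9 (0 to 9 higher, 0 to 1 lower).

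With replicate numbers as a block and the compared groups alone there were 571 calls (417 higher, 154 lower), 0 against p1 and 7 against pM (2 lower). Same-numbered libraries of D5 and D7 did not deviate together (Pearson r of 0.03, -0.07 and 0.08 across genes), and D5 replicate 1 correlated best with D7 replicate 2, so the numbers were not taken to pair the libraries.

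Uncalled genes near 0 changed sign. Hes5 was -0.067 with quantile normalisation, -0.29 after the length adjustment and -0.19 to 0.23 when 1 library was left out. Irx3 was 0.13 without the libraries of high total and -0.46 to 0.13 when 1 was left out. Nkx6-1 was 0.013 in edgeR, 0.015 in DESeq2, 0.39 without the libraries of high total and -0.50 to 0.39 when 1 was left out. Rarb was 0.078 after the length adjustment, 0.15 without the libraries of high total and -0.15 to 0.18 when 1 was left out. With 1 left out Cyp26a1 ranged from -0.092 to 0.75 and Olig2 from -0.23 to 1.03.

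With 3 libraries a day a call near the threshold rests on single libraries, and genes with few reads, such as Cdx4, have wide counting intervals.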
